A study of Mus musculus with 16 samples.

Results

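Laminin chains are the subunits of the laminins, large glycoproteins of the basement membrane, the sheet of matrix on which an epithelium rests. Of the 48709 gene rows of the deposited count table, 9 were followed here, matched by gene symbol: the alpha chain genes Lama1, Lama2, Lama3, Lama4 and Lama5, the beta chain genes Lamb1, Lamb2 and Lamb3, and the gamma chain gene Lamc1. All 9 passed the filter on low counts that left 18191 genes for testing. RNA had been sequenced in bulk from epithelium and mesenchyme of the parotid gland and of the submandibular gland of mouse embryos, with 4 libraries for each of the 4 kinds of tissue. Every group was Wild Type, of the outbred strain ICR and of embryonic day 13, with no treatment named in the labels of the samples. The labels describe 4 independent biological replicates, and the number of embryos behind each is not given in the sources used here. In addition, the series' design text mentions glands cultured for 6 days, whereas the labels of these samples describe glands harvested on embryonic day 13.

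A laminin is a heterotrimer of 1 alpha, 1 beta and 1 gamma chain that are joined along a coiled coil, and the trimer is named after its chains, so that laminin-511 holds the alpha 5, beta 1 and gamma 1 chains. The beta and gamma chains pair inside the cell, and the alpha chain is needed for the trimer to be secreted and carries the main sites for receptors on cells. In developing salivary glands the basement membrane lies between the branching epithelium and the mesenchyme, and laminins with the alpha 1 and alpha 5 chains are known to take part in branching. The comparisons ask which layer held the mRNA of each chain, whether the glands differed, and which trimers the chains of 1 layer could make.

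Levels are given as CPM, a gene's share of the counts of a library on a common scale, adjusted with the trimmed mean of M-values (TMM), as mean ± SD over the 4 libraries of a group. Total gene counts ran from 16912258 to 27646844 per library. A gene is called higher or lower where edgeR's quasi-likelihood test, fitted to all 16 libraries, gave a Benjamini-Hochberg adjusted p under 0.05 over the 18191 genes, and fold changes are log2 values with their standard error (SE). The labelled layers held their defining markers: 10 epithelium genes (Epcam, Cdh1 and others) summed to 26.3 CPM in parotid mesenchyme, 0.994% of their sum in parotid epithelium, and to 48.8 CPM in submandibular mesenchyme, 1.64% of that in submandibular epithelium. The 13 mesenchyme genes (Col1a1, Pdgfra and others) summed in epithelium to 1.35% of the mesenchymal level in the parotid gland and 1.34% in the submandibular gland. In bulk tissue, fewer cells of a type and less RNA per cell cannot be told apart, which holds for every level that follows.

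The alpha chains divided the layers. In both glands epithelium held Lama5 and mesenchyme held Lama4 and Lama2, with little of each in the other layer. Lama1 was higher in epithelium in the parotid gland, and in the submandibular gland its levels in the layers overlapped. Lama3 was an epithelial mRNA found mainly in the submandibular gland. In parotid epithelium against parotid mesenchyme 7 of 9 chains were called, 4 higher (Lama1, Lama3, Lama5, Lamb3) and 3 lower (Lama2, Lama4, Lamb2). Across all genes 64.9% were called in that comparison, 31.4% higher and 33.5% lower, so a call between the layers was the rule among genes. The libraries of the layers did not overlap for 7 of 9 chains and for 57.8% of all genes. In submandibular epithelium against its mesenchyme 8 of 9 were called, 4 higher (Lama3, Lama5, Lamb3, Lamc1) and 4 lower (Lama2, Lama4, Lamb1, Lamb2), where 67.0% of all genes were called, 33.3% higher and 33.7% lower. There the layers did not overlap for 7 of 9 chains and for 62.6% of all genes. The median log2 fold change of the 9 chains was 0.08 in the parotid and -0.35 in the submandibular gland, and that of all genes was 0 and 0.01.

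**Figure D1:**
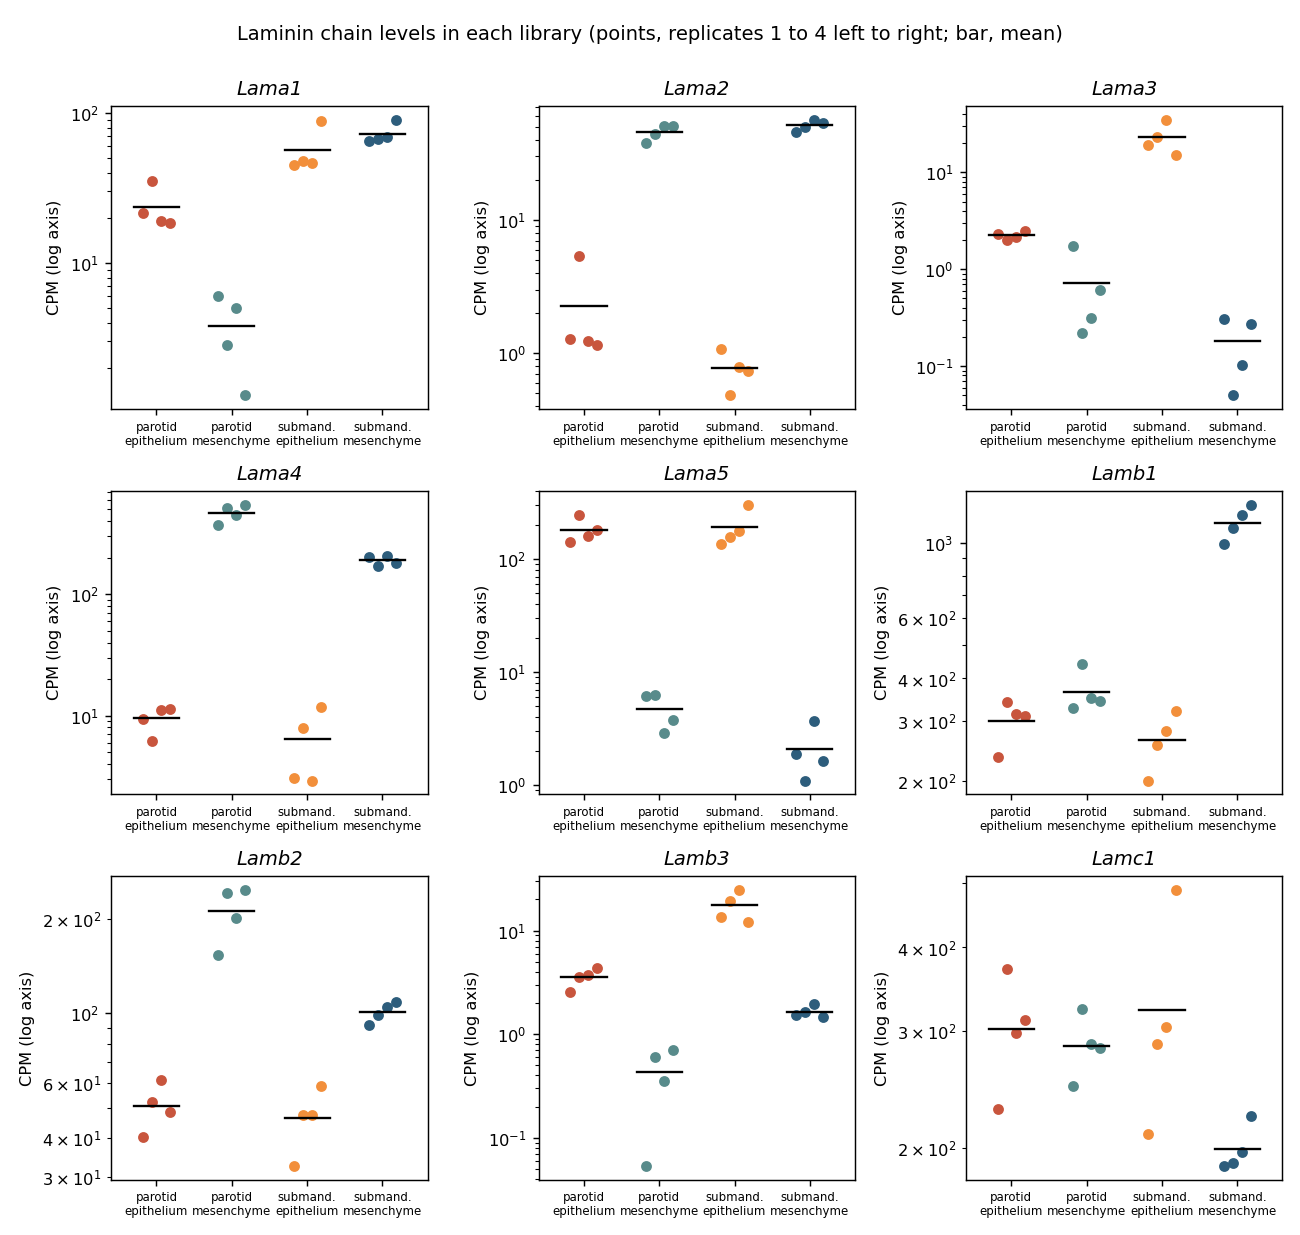
Level of each laminin chain in every library. The y axes are CPM on a log scale, the x axis gives the 4 groups, each point is 1 library and each bar the mean of 4. Lama5 lies high in both epithelia and low in both mesenchymes, Lama2 and Lama4 the other way round, and Lama1 is low in parotid mesenchyme but not in submandibular mesenchyme.

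Lama5 encodes the alpha 5 chain, the broadly used alpha chain of epithelial basement membranes, and Lama2 the alpha 2 chain, best known from the basement membrane of muscle and peripheral nerve. Lama5 (ENSMUSG00000015647) lies on chromosome 2 at 180176373 to 180225859 on the minus strand, and Lama2 (ENSMUSG00000019899) on chromosome 10 at 26980036 to 27619758, also on the minus strand (GRCm38, GENCODE M21). The 250 bases before the RefSeq transcript start of each (GRCm38.p6, coding strand, 5′ to 3′) are shown because these genes had opposite layer patterns and their windows, chr2:180225860-180226109 and chr10:27616943-27617192, held no annotated exon.
Lama5: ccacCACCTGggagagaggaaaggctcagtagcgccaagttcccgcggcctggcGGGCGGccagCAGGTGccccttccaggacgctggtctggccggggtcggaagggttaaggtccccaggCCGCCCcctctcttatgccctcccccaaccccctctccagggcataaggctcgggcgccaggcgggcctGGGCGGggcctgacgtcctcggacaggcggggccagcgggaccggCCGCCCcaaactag
Lama2: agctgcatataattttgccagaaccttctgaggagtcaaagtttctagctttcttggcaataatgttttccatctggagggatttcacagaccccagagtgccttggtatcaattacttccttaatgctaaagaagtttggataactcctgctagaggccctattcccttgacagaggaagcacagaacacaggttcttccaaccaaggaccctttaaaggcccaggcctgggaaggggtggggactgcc
Capitals mark matches to GC boxes (GGGCGG) and to the E-box CACCTG, on either strand. A TATA box (TATAAA) and an AP-1 site (TGANTCA) were also searched on both strands. The Lama5 window held 4 GC boxes and 2 E-boxes, none of them overlapping, and neither of the other motifs. The Lama2 window held none of the 4 motifs. It lies inside the gene as annotated in GENCODE M21, downstream of the start at 27619758. The Lama5 window lies directly before that gene's annotated start at 180225859, so the windows are not placed alike. Of 32851 RefSeq promoter windows of the same length, 32.7% held a GC box, 17.2% the E-box, 12.4% the TATA box and 6.75% the AP-1 site. A match to these letters is a description and not a binding site. RefSeq entries were found for 5 of the 9 chains.

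In epithelium Lama5 measured 142, 248, 160 and 181 CPM in the parotid gland and 137, 159, 179 and 304 CPM in the submandibular gland. In mesenchyme it measured 6.12, 6.25, 2.88 and 3.78 CPM in the parotid and 1.89, 1.1, 3.72 and 1.63 CPM in the submandibular gland. Every epithelial library exceeded every mesenchymal one. The log2 difference between layers was 5.28 (SE 0.37, adjusted p = 6.68e-09 in edgeR's quasi-likelihood test), or 38.9-fold, in the parotid and 6.54 (SE 0.4, adjusted p = 1.4e-09), or 93.3-fold, in the submandibular gland. The epithelia of the glands overlapped in Lama5, with a log2 difference of -0.09 (95% interval -0.72 to 0.54, adjusted p = 0.862). Mesenchymal Lama5 was 2.6% of the epithelial level in the parotid and 1.07% in the submandibular gland, beside 0.994% and 1.64% for the summed epithelium markers. The 1.64% rested largely on Epcam, which gave 35.3 of the 48.8 CPM in submandibular mesenchyme, where 3 of the 10 markers reached 1 CPM.

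Lama4 (chromosome 10, 38965515 to 39110188, plus strand, GRCm38 as for all genes here), the alpha chain of vessel walls and other mesenchymal tissues, showed the reverse. In mesenchyme it measured 372, 513, 447 and 547 CPM in the parotid gland and 203, 172, 208 and 182 CPM in the submandibular gland. The epithelial libraries held 9.41, 6.19, 11.1 and 11.3 CPM in the parotid and 3.09, 7.98, 2.92 and 11.8 CPM in the submandibular gland. The layers did not overlap in either gland, and epithelium was lower by log2 values of -5.63 (SE 0.38, adjusted p = 5.34e-09) and -4.87 (SE 0.37, adjusted p = 1.78e-08) in edgeR's test. Epithelium held 2.02% of the mesenchymal Lama4 level in the parotid and 3.37% in the submandibular gland, beside 1.35% and 1.34% for the summed mesenchyme markers. Parotid mesenchyme exceeded submandibular mesenchyme in every library, by 2.46-fold (log2 1.3, SE 0.31, adjusted p = 0.00461). Endothelium markers, 10 of 10 of them at 1 CPM or more in both mesenchymes, had sums of 574 to 870 CPM in the parotid and of 631 to 875 CPM in the submandibular gland. Smooth muscle and pericyte markers summed to 222 to 511 CPM and 86.9 to 110 CPM, with 7 of 8 at 1 CPM or more in each. Most of the mean sum of 407 CPM in parotid mesenchyme came from Acta2 (209 CPM) and Des (105 CPM). Des was also on the list of skeletal muscle markers. The mesenchyme markers themselves had sums of 25100 to 37400 CPM in the parotid and of 14400 to 16700 CPM in the submandibular gland. The part of these cell types in the Lama4 difference was not tested.

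Lama2 measured 37.8, 44.4, 50.8 and 50.8 CPM in parotid mesenchyme and 45.6, 49.9, 56.8 and 53.1 CPM in submandibular mesenchyme. The mesenchymes overlapped and their difference was not called (log2 -0.16, 95% interval -0.84 to 0.52, adjusted p = 0.744). Skeletal muscle markers, 8 of 8 of them at 1 CPM or more in both, had sums of 355 to 1450 CPM in the parotid and of 147 to 321 CPM in the submandibular gland. In epithelium Lama2 measured 1.27, 5.39, 1.23 and 1.16 CPM in the parotid and 1.08, 0.484, 0.796 and 0.733 CPM in the submandibular gland. Epithelium was lower than mesenchyme by log2 values of -4.35 (SE 0.39, adjusted p = 7e-08) and -6.04 (SE 0.43, adjusted p = 5.2e-09), and the layers did not overlap. Without parotid epithelium replicate 2 the parotid value was -5.22. The 4.92% of the mesenchymal level found in parotid epithelium rested largely on replicate 2, whose mesenchyme markers summed to 234 CPM, the lowest of that group. Between the epithelia Lama2 was called higher in the parotid (log2 1.53, SE 0.45, adjusted p = 0.0249), and without parotid epithelium replicate 2 the value was 0.66 and the call was lost (adjusted p = 0.0599). The call was also lost without submandibular epithelium replicate 2 (adjusted p = 0.0666) or replicate 4 (adjusted p = 0.0517). Limma-voom (adjusted p = 0.0905) lost it too, as did edgeR's fits to the epithelial libraries alone (0.0715), with genes of 1 or more counts all kept (0.0711) and with a replicate block (0.0514). An antisense gene, Gm48084, overlaps 631 exonic bases of Lama2, and the libraries do not mark strand, so reads of the pair cannot be told apart there.

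Lama1 encodes the alpha 1 chain, an early alpha chain of embryonic basement membranes, and lies on chromosome 17 at 67697259 to 67822647 on the plus strand. In the parotid gland its levels were 21.7, 35.4, 19 and 18.5 CPM in epithelium and 6.01, 2.85, 5.02 and 1.31 CPM in mesenchyme. In the submandibular gland it measured 45, 47.8, 46.6 and 87.9 CPM in epithelium and 64.6, 66.8, 69 and 90.5 CPM in mesenchyme. Parotid mesenchyme was thus the lowest of the groups in every library, while submandibular mesenchyme had the highest mean. It overlapped its epithelium through submandibular epithelium replicate 4 alone, and the other epithelial libraries, at 45 to 47.8 CPM, lay below all 4 mesenchymal ones. Between the mesenchymes the difference was 19.1-fold (log2 -4.26, SE 0.39, adjusted p = 7.03e-07 in edgeR's test). Parotid epithelium was 2.41-fold below submandibular epithelium (log2 -1.27, SE 0.33, adjusted p = 0.0143), with no overlap.

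The layers therefore differed in Lama1 in the parotid (log2 2.64, SE 0.37, adjusted p = 1.28e-05) and the difference was not called in the submandibular gland (log2 -0.35, 95% interval -1.04 to 0.34, adjusted p = 0.349). Without submandibular epithelium replicate 4 the latter was -0.7 and still not called (adjusted p = 0.0696). The difference between these layer effects was itself called, at 2.99 on the log2 scale (SE 0.49, adjusted p = 0.000453). Submandibular mesenchyme held 128% of the mean Lama1 level of its epithelium, while it held 1.64% of the summed epithelium markers and 1.07% of Lama5. Most of that marker sum in mesenchyme was Epcam, at 35.3 of 48.8 CPM.

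Lama3 encodes the alpha 3 chain of the laminins that anchor hemidesmosomes, the attachment plaques of stratified and glandular epithelia. Gene counts do not tell its short and long isoforms apart. It measured 19.3, 23.1, 35.1 and 15 CPM in submandibular epithelium and 2.29, 2.02, 2.17 and 2.46 CPM in parotid epithelium. Every submandibular library lay above every parotid one, by 10.3-fold (log2 -3.37 for parotid minus submandibular, SE 0.43, adjusted p = 4.1e-05). In mesenchyme it measured 1.72, 0.219, 0.316 and 0.607 CPM in the parotid, 57 counts in all, and 0.306, 0.0499, 0.103 and 0.272 CPM in the submandibular gland, 14 counts in all. Epithelium exceeded mesenchyme in both glands, by log2 values of 1.67 (SE 0.47, adjusted p = 0.0048) and 6.95 (SE 0.56, adjusted p = 1.08e-08). Those layer effects differed by -5.28 on the log2 scale (SE 0.74, adjusted p = 8.01e-05), and by -4.42 without parotid mesenchyme replicate 1.

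The small mesenchymal levels of Lama3 were called higher in the parotid (log2 1.91, SE 0.64, adjusted p = 0.027) although the groups overlapped. Without parotid mesenchyme replicate 1, the library with the highest Lama3 and the highest sum of epithelium markers of its group (52.1 CPM against 15 to 21.7), the value was 1.06 and the call was lost (adjusted p = 0.158). The parotid layer difference then rose to 2.52 (adjusted p = 5.87e-05). The call between the mesenchymes was also lost without submandibular mesenchyme replicate 2 (adjusted p = 0.0814) or replicate 3 (adjusted p = 0.0725). Other methods lost it too: limma-voom (adjusted p = 0.185), edgeR's fit to the mesenchymal libraries alone (0.0766) and edgeR's fit with genes of 1 or more counts all kept (0.0538). An antisense gene, Gm29200, overlaps 197 exonic bases of Lama3.

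Lama5 was also called higher in parotid than in submandibular mesenchyme at its low level (log2 1.17, SE 0.4, adjusted p = 0.0315), with overlapping libraries. This call was lost when any of parotid mesenchyme replicates 1 and 2 or submandibular mesenchyme replicates 1, 2 and 4 was left out, with adjusted p from 0.0739 to 0.101 and log2 values from 0.96 to 1.13. Limma-voom lost the call too (adjusted p = 0.177). So did edgeR's fits with genes of 1 or more counts all kept (0.0966), without scaling beyond library size (0.0578) and with a replicate block (0.0586). With the 4 groups ordered by mean, Lama1 ran from submandibular mesenchyme through submandibular and parotid epithelium to parotid mesenchyme, with overlap between the first and second. Lama2 ran from submandibular through parotid mesenchyme, which overlapped, to parotid and submandibular epithelium. For Lama3 the order was submandibular epithelium, parotid epithelium, then the mesenchymes, which overlapped. For Lama4 it was parotid mesenchyme, submandibular mesenchyme, then the overlapping epithelia, and for Lama5 the overlapping epithelia and then the overlapping mesenchymes.

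**Figure D2:**
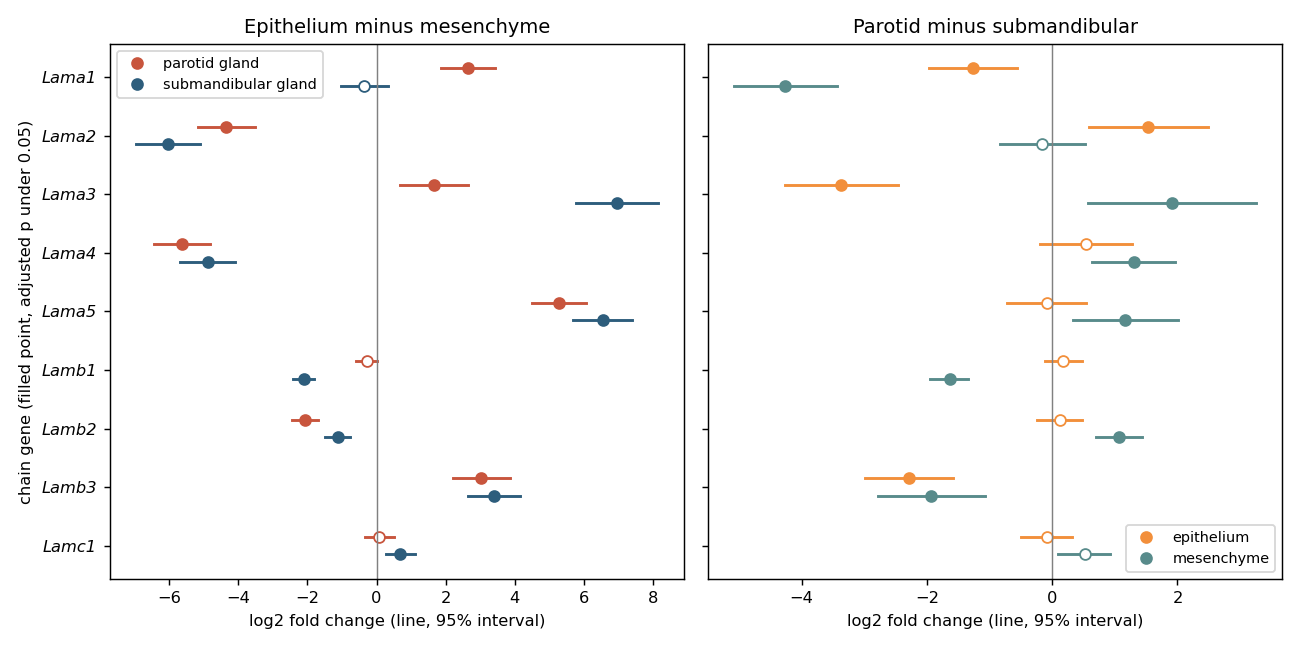
Fitted differences for the 9 chains. The x axes are log2 fold changes with 95% intervals, the left panel comparing the layers (epithelium minus mesenchyme) and the right panel the glands (parotid minus submandibular), with filled points called at an adjusted p under 0.05. Lama1 and Lamb1 stand at -4.26 and -1.64 between the mesenchymes, and Lama3 and Lamb3 at -3.37 and -2.29 between the epithelia.

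Among the beta chains, Lamb1 and Lamb2 were present in every group and Lamb3 was low. Lamb1 (chromosome 12, 31265234 to 31329644, plus strand), the beta chain of most laminins, measured 236, 342, 314 and 310 CPM in parotid epithelium, 327, 441, 350 and 344 CPM in parotid mesenchyme and 201, 255, 281 and 321 CPM in submandibular epithelium. Submandibular mesenchyme stood above all of these, at 988, 1100, 1200 and 1290 CPM. It exceeded submandibular epithelium 4.32-fold (log2 -2.11 for epithelium minus mesenchyme, SE 0.15, adjusted p = 1.66e-09) and parotid mesenchyme 3.13-fold (log2 -1.64 for parotid minus submandibular, SE 0.14, adjusted p = 2.49e-07). The parotid layers overlapped, with a log2 difference of -0.28 (95% interval -0.58 to 0.02, adjusted p = 0.0889). The layer effects differed between the glands by 1.83 (SE 0.2, adjusted p = 6.35e-06).

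Lamb2, the beta chain known from the basement membranes of the nerve-muscle junction and the kidney filter, was higher in mesenchyme in both glands. The gene lies on chromosome 9 at 108479736 to 108490530 on the plus strand. It measured 154, 243, 202 and 248 CPM in parotid mesenchyme and 91.8, 99, 105 and 109 CPM in submandibular mesenchyme. The epithelia measured 40.2, 52.1, 61.4 and 48.4 CPM and 32.6, 47.2, 47.5 and 58.7 CPM, in the same order of glands. The mesenchymes did not overlap with each other or with the epithelia, and the epithelia overlapped. Parotid mesenchyme was 2.09-fold above submandibular mesenchyme (log2 1.06, SE 0.17, adjusted p = 0.000136), the opposite direction to Lamb1. The layer effects of -2.07 in the parotid and -1.12 in the submandibular gland, both called, differed by -0.94 (SE 0.24, adjusted p = 0.00994).

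Lamb3 encodes a beta chain of the laminin of hemidesmosomes and lies on chromosome 1 at 193207699 to 193343878 on the plus strand. It measured 13.7, 19.5, 24.7 and 12.2 CPM in submandibular epithelium and 2.54, 3.57, 3.77 and 4.38 CPM in parotid epithelium, without overlap. In mesenchyme it measured 1.53, 1.65, 1.96 and 1.47 CPM in the submandibular gland and 0.0537, 0.603, 0.355 and 0.7 CPM in the parotid, 36 counts in all. All 4 groups were separate in this order of submandibular epithelium, parotid epithelium, submandibular mesenchyme and parotid mesenchyme. Lamb3 was higher in epithelium by log2 values of 3.03 (SE 0.4, adjusted p = 3.53e-06) in the parotid and 3.4 (SE 0.35, adjusted p = 2.23e-07) in the submandibular gland. Parotid minus submandibular was -2.29 (SE 0.33, adjusted p = 0.000133) in epithelium and -1.93 (SE 0.41, adjusted p = 0.00144) in mesenchyme.

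Lamc1, the gamma chain of nearly all laminins, was the most even of the 9 by group means. It lies on chromosome 1 at 153218922 to 153332786 on the minus strand. It measured 229, 371, 298 and 311 CPM in parotid epithelium, 248, 323, 286 and 283 CPM in parotid mesenchyme, 210, 286, 304 and 488 CPM in submandibular epithelium and 188, 190, 197 and 223 CPM in submandibular mesenchyme. The first 3 groups overlapped, and submandibular epithelium overlapped submandibular mesenchyme through its replicate 1. The submandibular layers differed by 0.69 (SE 0.2, adjusted p = 0.00501), and by 0.36 (adjusted p = 0.0341) without submandibular epithelium replicate 4. The parotid layers differed by 0.08 (95% interval -0.33 to 0.5, adjusted p = 0.72). Parotid mesenchyme lay above submandibular mesenchyme in every library, and the difference of 0.52 (95% interval 0.1 to 0.93) was not called, with an adjusted p of 0.0507. It was called in 7 of the 25 alternatives run, with DESeq2 (adjusted p = 0.0303), RLE size factors (0.0488), a fit to the mesenchymal libraries alone (0.00248) and a replicate block (0.0182). Leaving out parotid mesenchyme replicate 1, submandibular epithelium replicate 1 or submandibular epithelium replicate 4 also gave a call.

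Between the glands, 4 of 9 chains were called in epithelium, 1 higher in the parotid (Lama2) and 3 lower (Lama1, Lama3, Lamb3), against 20.9% of all genes, 11.2% higher and 9.72% lower. The libraries did not overlap for 4 of 9, against 20.7% of all genes. In mesenchyme 7 of 9 were called, 4 higher in the parotid (Lama3, Lama4, Lama5, Lamb2) and 3 lower (Lama1, Lamb1, Lamb3), against 34.5% of all genes, 20.8% higher and 13.7% lower. The libraries did not overlap for 6 of 9, against 36.8% of all genes. The median log2 fold change of the chains was -0.09 in epithelium and 0.52 in mesenchyme, and that of all genes was 0 and 0.04. The layer effect differed between the glands for 5 of 9 chains, against 20.9% of all genes. It was more positive in the parotid for Lama1, Lama2 and Lamb1 and more negative for Lama3 and Lamb2, where 8.67% and 12.2% of all genes were called in these directions. The Lama2 difference of 1.69 (SE 0.55, adjusted p = 0.04) was lost in 10 of the 16 fits that left out 1 library, with adjusted p up to 0.0728 in them. Without parotid epithelium replicate 2 it was 0.88 and still called. With all 16 libraries it was also lost in limma-voom (adjusted p = 0.0711), and in edgeR's fits with genes of 1 or more counts all kept (0.111) and with a replicate block (0.0754).

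To set the chains beside each other, CPM was divided by the summed exon length in kilobases (CPM per kb). On that scale Lama5 made up 81.6% ± 1.88 of the alpha chain mRNA of parotid epithelium and 65.8% ± 2.8 of that of submandibular epithelium (SD, n = 4). Lama1 made up 12.4% ± 1.98 and 22.8% ± 2.05, and Lama3 1.11% ± 0.277 and 9.17% ± 4.1, in the same order. In mesenchyme Lama4 made up 91.2% ± 1.47 of the alpha chain mRNA of the parotid and 59.4% ± 4.01 of that of the submandibular gland. Lama1 took 28.1% ± 3.93 of the alpha chains in submandibular mesenchyme and 0.995% ± 0.675 in parotid mesenchyme, and Lama2 took 11.8% ± 0.901 and 6.64% ± 0.715. The leading alpha chain was thus the same in both glands, and the libraries of the glands did not overlap in the share of Lama5 between the epithelia or of Lama4 between the mesenchymes. These shares depend on the length used: with coding length, Lama4 stood at 72.1% and Lama1 at 16.2% of the alpha chains in submandibular mesenchyme.

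**Figure D3:**
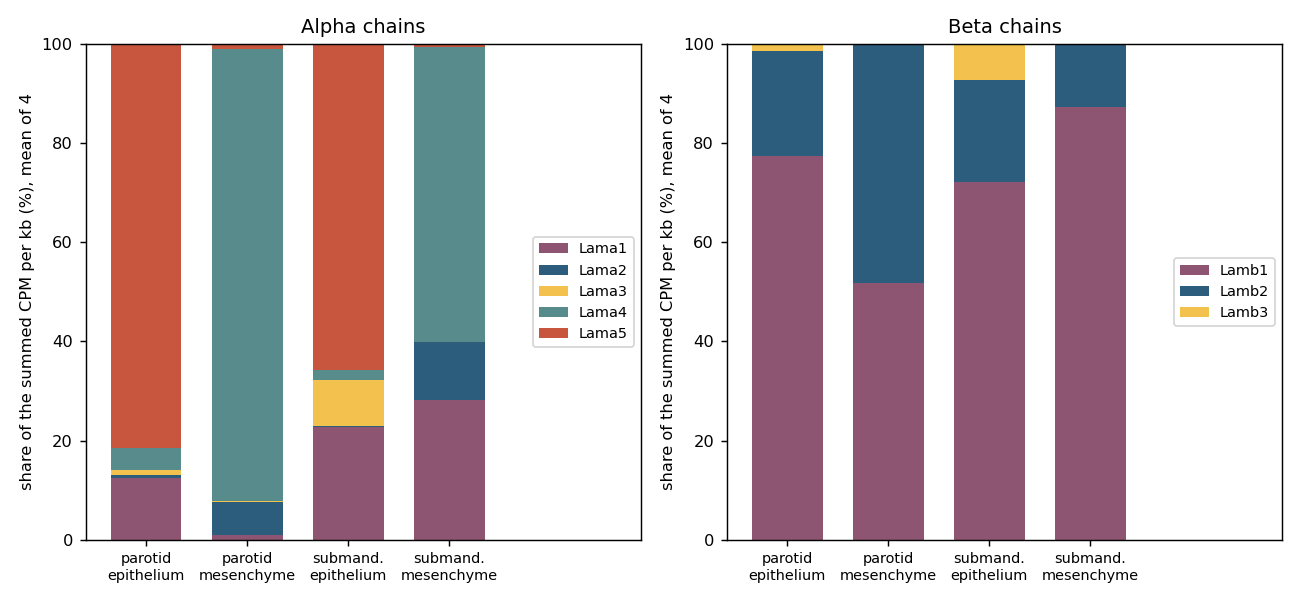
Makeup of the alpha chains (left) and beta chains (right) in each group. The y axis is the share of the summed CPM per kb in percent, each bar segment the mean of 4 libraries. Lama5 fills most of the alpha bar in both epithelia, Lama4 91.2% in parotid and 59.4% in submandibular mesenchyme, and Lamb2 48.2% of the beta bar in parotid mesenchyme against 12.6% in submandibular mesenchyme.

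The beta chains differed most between the mesenchymes. Per kb, Lamb1 was 1.08 ± 0.186 times Lamb2 in parotid mesenchyme, with libraries from 0.852 to 1.3, and 6.91 ± 0.286 times Lamb2 in submandibular mesenchyme. The epithelia lay between, at 3.67 ± 0.401 in the parotid and 3.52 ± 0.218 in the submandibular gland. The order of the mesenchymes and epithelia was the same with coding length, but every ratio was higher, at 1.73 ± 0.297 in parotid and 11.1 ± 0.457 in submandibular mesenchyme, and 5.87 ± 0.641 and 5.63 ± 0.349 in the epithelia. The sum of Lamb1 and Lamb2 per kb was 1.06 ± 0.0852 and 0.917 ± 0.138 times Lamc1 in parotid and submandibular epithelium. It was 2.07 ± 0.131 times Lamc1 in parotid mesenchyme and 5.47 ± 0.311 times in submandibular mesenchyme. Beta chain mRNA per kb was therefore close to gamma 1 in the epithelia and above it in the mesenchymes.

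The alpha chains summed per kb to 0.536 ± 0.0528 times Lamc1 in parotid epithelium and 0.668 ± 0.0491 times in submandibular epithelium. In the mesenchymes their sum was 1.24 ± 0.13 times Lamc1 in the parotid and 1.11 ± 0.0761 times in the submandibular gland. Lama5 alone stood at 0.437 ± 0.0405 and 0.439 ± 0.0301 times Lamc1 in parotid and submandibular epithelium. With coding length these were 0.26 ± 0.0241 and 0.261 ± 0.0179, and the epithelial alpha sums were 0.337 ± 0.03 and 0.411 ± 0.0282 times Lamc1. With summed exon length, the ratio of Lama5 to Lamc1 ran from 0.404 to 0.473 across submandibular epithelial libraries, while Lama5 itself ran from 137 to 304 CPM. Submandibular epithelium replicate 4, the library highest in Lama5, was also the highest of its group in Lama1, Lama4, Lamb1, Lamb2 and Lamc1, and the lowest in Lama3 and Lamb3.

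For each of 10 trimers, those of the 5 alpha chains with beta 1 or beta 2 and gamma 1, the level of its scarcest chain, in CPM per kb, was taken as what the mRNA of 1 layer could supply. It is no measure of protein, and chains used in several trimers are counted in each. Laminin-511 reached 16 ± 4.06 in parotid and 17.1 ± 6.59 in submandibular epithelium, with Lama5 the scarcest chain in all 8 libraries. Laminin-521 reached 8.31 ± 1.44 and 7.65 ± 1.75 there, with Lamb2 the scarcest. In mesenchyme both trimers stayed at 0.418 ± 0.148 in the parotid and 0.183 ± 0.0998 in the submandibular gland. Lama5 was the scarcest chain in these.

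Laminin-411 reached 34.5 ± 3.69 in parotid mesenchyme, where Lamc1 was the scarcest chain in 4 of 4 libraries, and 15.8 ± 1.4 in submandibular mesenchyme, where Lama4 was. Laminin-421 reached 32.9 ± 5.7 and 15.4 ± 1.26. In parotid mesenchyme the alpha 4 chain was hence not the scarce one, unlike the alpha chains of the trimers with the highest supply in the epithelia and in submandibular mesenchyme. In epithelium laminin-411 stayed at 0.786 ± 0.195 in the parotid and 0.534 ± 0.353 in the submandibular gland. Laminin-211 and laminin-221, limited by Lama2, reached 2.81 ± 0.38 in parotid mesenchyme, 3.14 ± 0.291 in submandibular mesenchyme and at most 0.33 in any epithelial library.

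Laminin-111 and laminin-121 were limited by Lama1 in every group. They reached 7.51 ± 1.24 in submandibular mesenchyme, 5.87 ± 2.14 in submandibular epithelium, 2.44 ± 0.821 in parotid epithelium and 0.392 ± 0.219 in parotid mesenchyme. Laminin-311 and laminin-321, limited by Lama3, reached 2.15 ± 0.805 in submandibular and 0.208 ± 0.0174 in parotid epithelium.

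With a minimum of 1 CPM per kb in every library of a group, parotid epithelium could supply 4 of the 10 trimers (those of alpha 5 or alpha 1) and submandibular epithelium 6, adding laminin-311 and laminin-321. Parotid mesenchyme could supply 4 (those of alpha 4 or alpha 2) and submandibular mesenchyme 6, adding laminin-111 and laminin-121. With coding length the number for parotid epithelium rose to 6, with laminin-411 and laminin-421 added, and the other numbers stayed. Coding length also raised the supply of laminin-411 to 59.1 in parotid and 35.1 in submandibular mesenchyme, and that of laminin-211 to 4.91 and 5.49. This minimum was chosen with the levels known, and the means nearest to it were those of laminin-411 in parotid epithelium, at 0.786 below it, and laminin-311 in submandibular epithelium, at 2.15 above it with a lowest library of 1.39.

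**Figure D4:**
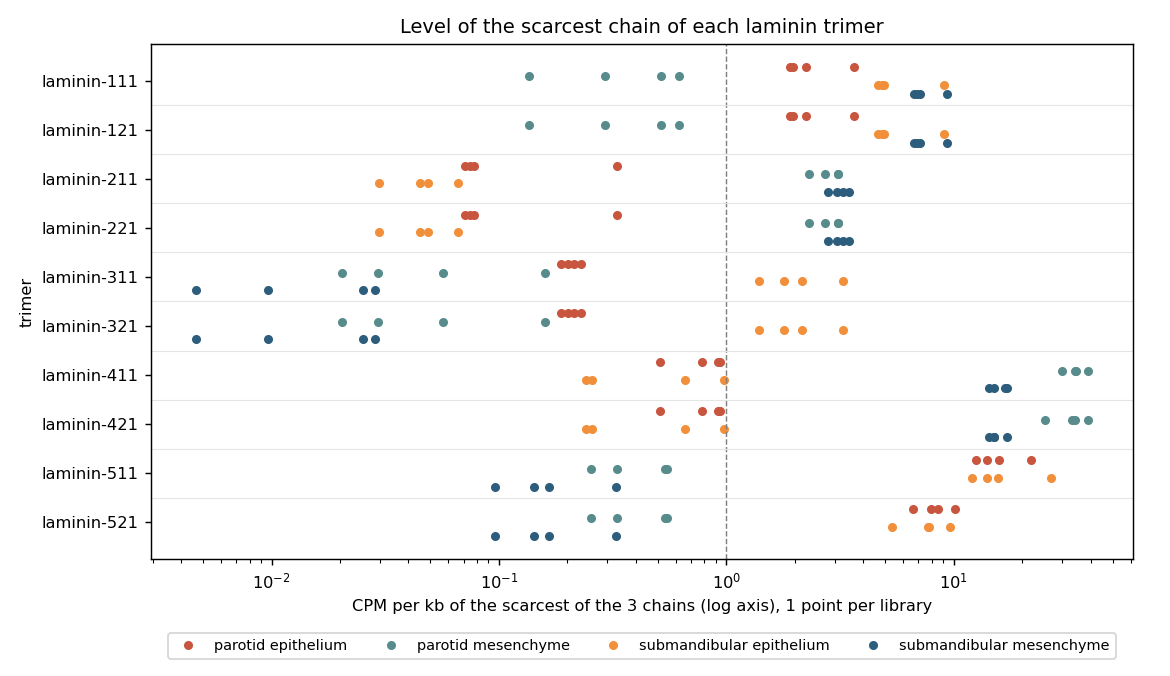
Supply of each of 10 laminin trimers. The x axis is the CPM per kb of the scarcest of the 3 chains on a log scale, each point 1 library, the colours the 4 groups and the dashed line the minimum of 1. Trimers with alpha 5 lie to the right in the epithelia and those with alpha 4 in the mesenchymes, and those with alpha 1 lie below the line in parotid mesenchyme.

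Receptors for laminins were tested as a list of 12 genes, among them integrins, dystroglycan and the linkers to the cell's filaments Dst and Plec. The list also held Bcam, Cd151, Col17a1 and Rpsa, which are none of these. Rpsa averaged 296 and 426 CPM in parotid and submandibular epithelium and 186 and 182 CPM in the mesenchymes. In the parotid 8 of 12 were higher in epithelium and 3 lower, and in the submandibular gland 9 were higher and 2 lower, with median log2 fold changes of 0.71 and 1.33. Over all genes 31.4% were higher and 33.5% lower in the parotid, and 33.3% and 33.7% in the submandibular gland, with medians of 0 and 0.01. Itgb4, the integrin subunit of hemidesmosomes, averaged in epithelium 123 ± 32.8 CPM for the parotid and 67.3 ± 19.2 CPM for the submandibular gland, and 2.93 ± 0.99 and 1.26 ± 0.27 CPM in the mesenchymes (SD, n = 4). Its layer differences were 5.39 and 5.74 on the log2 scale, both called. Itga3, whose product pairs with integrin beta 1 as a receptor for laminins with alpha 3 and alpha 5, differed by 4.19 and 4.52. Col17a1, a collagen that spans the membrane at hemidesmosomes, averaged in epithelium 80.8 ± 13.9 CPM for the parotid and 233 ± 67.5 CPM for the submandibular gland and was called lower in the parotid (log2 -1.53, SE 0.25, adjusted p = 0.000569). Itgb4 went the other way between the epithelia (log2 0.87, SE 0.24, adjusted p = 0.0189). Bcam, a receptor for the alpha 5 chain, differed between the layers by 2.89 in the parotid and 4.92 in the submandibular gland.

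The receptor genes lower in epithelium were Itga7 and Dst in both glands and Itgb1, the partner of several laminin-binding integrin subunits, in the parotid (log2 -0.61, adjusted p = 5.29e-06). Itga7, the integrin of muscle that binds laminins with alpha 2, averaged in mesenchyme 14.4 ± 6.83 CPM for the parotid and 2.31 ± 0.767 CPM for the submandibular gland, where the skeletal muscle markers summed to 1130 and 212 CPM. It was called lower in both epithelia. Dst, a linker to the cytoskeleton with neural, muscle and epithelial forms, averaged 79.2 ± 15.5 and 61.3 ± 19.1 CPM in the mesenchymes, 4.95 ± 1.03 CPM in parotid epithelium and 16.8 ± 5.66 CPM in submandibular epithelium. Dag1, which encodes dystroglycan, averaged 280 ± 54.8, 232 ± 26.4, 283 ± 72.2 and 124 ± 10.4 CPM in parotid epithelium and mesenchyme and submandibular epithelium and mesenchyme. It was called between the submandibular layers (log2 1.2, SE 0.17, adjusted p = 8.85e-06) and not between the parotid layers (log2 0.27, adjusted p = 0.172), and those effects differed by -0.93 (SE 0.24, adjusted p = 0.00984). Between the epithelia 1 of 12 receptor genes was higher in the parotid and 4 lower, and between the mesenchymes 6 were higher and 1 lower. The shares of all genes were 11.2% and 9.72% between the epithelia and 20.8% and 13.7% between the mesenchymes.

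**Figure D5:**
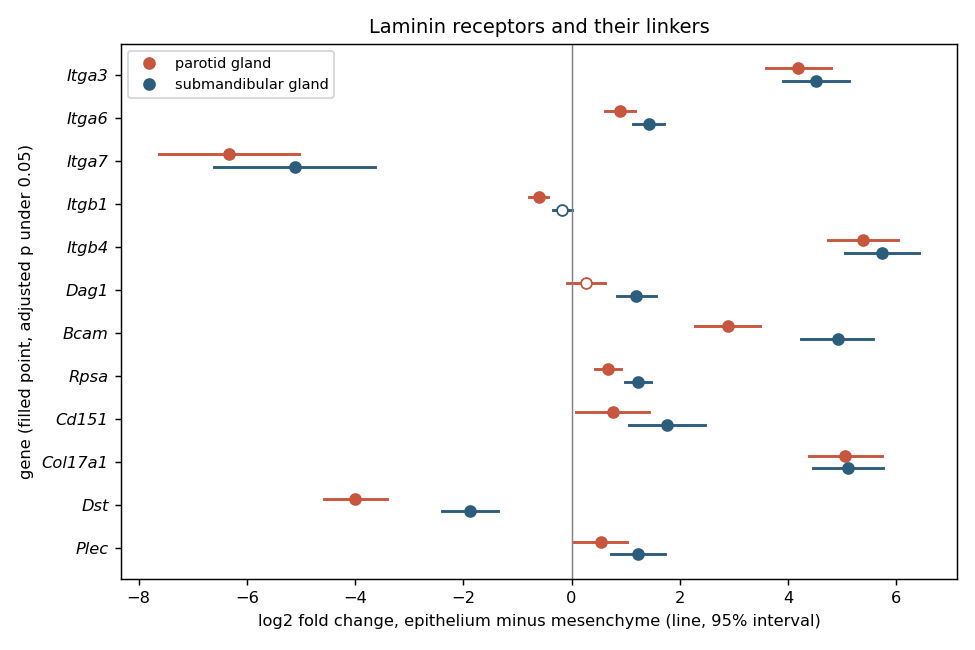
Layer differences of the laminin receptors and their linkers. The x axis is the log2 fold change of epithelium minus mesenchyme with its 95% interval, the y axis the 12 genes, and the colours the glands, with filled points called at an adjusted p under 0.05. Itgb4, Col17a1 and Itga3 lie above 4 in both glands, and Itga7 lies at -6.33 and -5.12.

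Of 20 genes whose products bind laminin or join its network in the basement membrane, 3 were higher and 10 lower in epithelium than in mesenchyme in the parotid, and 8 were higher and 8 lower in the submandibular gland, beside the shares of all genes given for the receptors. The medians were -0.44 and -0.33. Nid1 and Nid2 encode nidogens, which bind the gamma 1 chain and link laminin to collagen IV. Nid1 averaged 469 ± 89 and 539 ± 16.6 CPM in parotid and submandibular mesenchyme and 24.4 ± 5.78 and 10.7 ± 3.84 CPM in the epithelia, and Nid2 averaged 497 ± 46.2, 730 ± 74.2, 31.1 ± 10.3 and 12.2 ± 6.72 CPM in the same order. The Nid1 layer differences were -4.27 and -5.65 and those of Nid2 -4 and -5.9, so the nidogen mRNA lay in the layer with Lama4, while its partner Lamc1 was present in both. Frem2, a protein of the epithelial side of the basement membrane, was higher in epithelium by 2.48 and 5.3, and Tinagl1, a laminin-binding matrix protein, by 2.71 and 0.81.

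Between the mesenchymes 11 of these 20 partners were higher in the parotid and 1 lower, where 20.8% and 13.7% of all genes were, and the median was 0.84 against 0.04 for all genes. Ntn1, a netrin related in sequence to laminin chains, was higher by 3.9 (SE 0.41, adjusted p = 2.85e-06), and Smoc2, a matricellular protein of basement membranes, by 3.65 (SE 0.28, adjusted p = 1.11e-07). Smoc2 averaged in mesenchyme 470 ± 39.6 CPM for the parotid and 37.6 ± 2.38 CPM for the submandibular gland. Egflam, which encodes the dystroglycan ligand pikachurin, was higher by 1.98. Tinagl1 was the lower gene (log2 -1.31, SE 0.2, adjusted p = 9.94e-05). Between the epithelia 8 partners were higher in the parotid and 3 lower, where 11.2% and 9.72% of all genes were, and the median was 0.22 against 0. Col15a1, a collagen of the outer basement membrane, was higher by 2.21 (SE 0.28, adjusted p = 4.89e-05), and Npnt, the integrin ligand nephronectin, was lower (log2 -1.7, SE 0.33, adjusted p = 0.00222). The layer effect of 13 partners differed between the glands, 4 more positive in the parotid and 9 more negative, where 8.67% and 12.2% of all genes were.

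Of 12 enzymes that build the sugar by which dystroglycan binds laminin, 2 were higher and 5 lower in epithelium than in mesenchyme in the parotid, and 3 were higher and 8 lower in the submandibular gland. In the parotid 31.4% of all genes were higher and 33.5% lower, and in the submandibular gland 33.3% and 33.7%. B3galnt2, which adds a sugar unit, averaged 118 ± 8.1 and 113 ± 5.11 CPM in parotid and submandibular epithelium and 57.4 ± 2.05 and 52 ± 4.48 CPM in the mesenchymes, with layer differences of 1.04 and 1.13, both called.

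Across the 16 libraries the genes most like each alpha chain, by Pearson's r of log2 CPM over the 10391 genes whose mean reached 10 CPM, are given as a description: the 16 points come from 4 groups, and libraries of a group share their layer and gland. For Lama5 they were Spint1 (r = 0.993), 9930014A18Rik (r = 0.991) and Lratd2 (r = 0.989), and for Lama4 Filip1 (r = 0.991), P3h1 (r = 0.988) and Pdlim3 (r = 0.987). For Lama2 they were Fn1 (r = 0.988), Klf12 (r = 0.985) and Wdr37 (r = 0.985). Fn1, the gene of fibronectin, averaged 1420 and 1380 CPM in parotid and submandibular mesenchyme and 141 and 99 CPM in the epithelia. For Lama3 they were Krt19 (r = 0.965), Taf10 (r = 0.963) and Gabrp (r = 0.955). Krt19, a keratin of duct epithelia, averaged 87.1 CPM in submandibular and 6.13 CPM in parotid epithelium. For Lama1 they included Vsig10 (r = 0.93) and Prpf38b (r = 0.918), whose means varied far less than those of Lama1, Vsig10 from 10.6 to 32.2 CPM over the groups.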

How the data were processed

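Full-length cDNA libraries were made with kits that do not mark strand, per the labels' protocols. The submitters' processing notes name STAR 2.5.2a, edgeR and the build GRCm38 (mm10). No source used here names the read counter or the annotation. The authors deposited raw read counts per gene, which were tested, and a normalized signal (TMM-scaled CPM), which was used to match the members and for comparison: the CPM computed here differed from it by at most 4.45% for the members. The 92 spike-in rows were left out. One model of the 4 groups was fitted to 16 libraries by robust quasi-likelihood (edgeR 4.0.16, R 4.3.3) with TMM scaling after filterByExpr, which kept 18191 genes, with 5 contrasts, and was tested on simulated counts. The SE is the log2 fold change over the square root of F. Levels per kb used summed exon lengths of GENCODE M21, and, as an alternative, coding length. Counts of the 24 library pairs within groups differed by more than sampling noise (chi-square per gene from 10.5 to 55.7). P-values weigh a difference between groups against the spread between these samples, and the number of embryos behind each sample is not given. Replicate numbers were not used to pair the samples in the main fit. Beside the members, the text names up to 4 called genes of each list and contrast with the largest change and at least 10 CPM in the higher group, 3 genes most like each alpha chain, and genes not called with their values. Some genes that this rule took are left out here. The members, lists, markers and tests were chosen with earlier results of these data known. Alternatives were other scalings and filters, DESeq2 1.42.0, limma-voom (limma 3.58.1), fits to 8 libraries, a replicate block and leaving out each library.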

Additional observations from a re-analysis of the deposited data

Results flagged for a closer look

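Of 36 groups of 4 libraries, 1 for each chain and group, 3 held a library whose gap to the others was beyond Dixon's 95% limit, where chance alone gives about 1 in 20. Lama1 was at 87.9 CPM in submandibular epithelium replicate 4, against 45 to 47.8 CPM in the other libraries, and at 90.5 CPM in submandibular mesenchyme replicate 4, against 64.6 to 69 CPM. Lama2 was at 5.39 CPM in parotid epithelium replicate 2, against 1.16 to 1.27 CPM in the others.

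For 5 chains the difference between epithelium and mesenchyme was itself different in the glands by edgeR's quasi-likelihood test of the interaction, parotid minus submandibular on the log2 scale. The values were 2.99 for Lama1, 1.69 for Lama2, -5.28 for Lama3, 1.83 for Lamb1 and -0.94 for Lamb2.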

How the results depend on the processing

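The 45 chain differences (9 chains in 5 comparisons) were recomputed under the alternatives, except that a fit to 8 libraries gives no difference of layer effects, which gave 1116 values, of which 1060 kept direction and side of the threshold, 36 lost a call, 13 gained one and 7 changed sign. The changes lay in 14 of the 45 differences. The sign changes were all in differences that were not called. Over all the alternatives, Lamc1 between the parotid layers ran from -0.02 (without parotid epithelium replicate 2) to 0.2. Between the epithelia Lama5 ran from -0.25 to 0.21 and Lamc1 from -0.23 to 0.18, above 0 without parotid epithelium replicate 1 (0.02 and 0.04) or submandibular epithelium replicate 4. The difference of the Lamb3 layer effects was 0.03 in limma-voom, and ran from -0.7 to 0.05 (without parotid mesenchyme replicate 4). With genes of 1 or more counts all kept, 2 chains were called between the epithelia in place of 4, since Lama1 (adjusted p = 0.0552) and Lama2 (adjusted p = 0.0711) were lost. When 1 library was left out, the chains called numbered 7 to 7 between the parotid layers, 8 to 8 between the submandibular layers, 3 to 4 between the epithelia, 5 to 8 between the mesenchymes and 4 to 6 for the difference of layer effects. Same-numbered replicates correlated over 0.1 in 3 of 24 pairs (range -0.155 to 0.259), and the numbers were taken as names of samples only. Pairing in another order was not tried, so whether the layers of a gland were collected in pairs is not known. With the replicate block 8, 8, 3, 7 and 4 chains were called in the order above: Lamb1 was gained between the parotid layers, Lama2 lost between the epithelia and for the difference of layer effects, and between the mesenchymes Lama5 was lost and Lamc1 gained. Scalings moved the median of all genes by up to 0.174 (log2), and no chain changed sign under the scalings tried. Of 40 trimer values, 14 moved by more than the SD between replicates with coding length and 0 without scaling. The low mesenchymal levels of Lama3 (57 and 14 counts) and Lamb3 (36 counts in the parotid) limit those differences.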
